A study of Mus musculus with 17 samples.

Results

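Accessible chromatin was described at 9 genes of the JAK-STAT pathway, 6 encoding STAT transcription factors (Stat2, Stat3, Stat4, Stat5a, Stat5b and Stat6) and 3 encoding inhibitors of the suppressor of cytokine signaling family (Socs1, Socs3 and Cish). Peak summits of 17 peak lists were clustered into elements, and all elements that reached within 20 kb of these gene bodies in the mm10 genome were taken. This gave 61 elements at the 9 loci, of 39449 in the whole genome. Of the 61, 16 are called promoter elements because their nearest edge was at most 1 kb away from an annotated start of transcription (TSS) of a member gene, 13 lay that close to a TSS of another gene, and 32 were distal. Each element is named by its gene and its distance in kb from the first protein-coding TSS of that gene, counted along the direction of transcription, so that a minus sign means upstream.

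The lists came from ATAC-seq, an assay that tags open DNA with the transposase Tn5, of mouse bone marrow-derived macrophages (BMDMs). The cells were from male C57Bl6/J mice, either wild-type (WT) or lacking Nur77 (KO), the orphan nuclear receptor encoded by Nr4a1. The KO was a whole-body deletion whose CMV-Cre had been bred out, although the labels give its genotype as cre. The cells were untreated (0 h) or given 100 ng/ml lipopolysaccharide (LPS) for 1 or 18 h. WT held 3 lists at 0 h, 2 at 1 h and 3 at 18 h, and KO held 3 at each time. One of the WT lists at 1 h is labelled replicate 1-2. The labels do not say which lists came from separate mice, so the p-values measure the spread between these lists, which may be partly technical.

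Peaks were compared by rank. Inside each list peaks were ordered by p-value, with tied peaks sharing their mean rank, so that a low rank number means a strong peak. The rank score of an element is 0 when its peak was absent or weaker than the 26558 best of a list, which was the length of the shortest list, and rises by 1 for every 2-fold better rank. An element was called when its Benjamini-Hochberg adjusted p in limma, fitted over all 39449 elements, was under 0.05 and its score differed by over 1. The lists differed in depth, from 0.382 to 9.75 background reads per kb. All 3 WT lists at 0 h (5.11 to 9.75) and at 18 h (4.62 to 8.38) were deeper than both WT lists at 1 h and all 3 KO lists at 18 h (1.10 to 1.76). In KO at 18 h replicate 1 the median peak was 135 bp wide, against 338 to 661 bp in the other lists, and the 18 h results are also given without it. Promoter peaks of 8 macrophage markers were found in 14 to 17 lists, 6 of them in all 17, whereas both erythroid markers, 3 of 4 T cell, 2 of 3 B cell, 3 of 4 neutrophil and 2 of 3 fibroblast markers had none. The 1 remaining marker of each of these last 4 types had a promoter peak in 17, 10, 15 and 11 lists. No list held a peak over the coding exons of Nr4a1, so the KO could not be checked in these files.

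In the JAK-STAT pathway, a cytokine binds its receptor, the receptor-bound Janus kinases phosphorylate STAT proteins, and STAT dimers enter the nucleus and bind GAS motifs, while STAT2 acts with IRF9 at interferon-stimulated response elements (ISREs). In macrophages, LPS induces interferon-β, IL-6 and IL-10, which act back on the cells through this pathway. SOCS1, SOCS3 and CISH are themselves induced by STATs and switch the signal off, SOCS1 mainly downstream of interferons, SOCS3 at the IL-6 receptor subunit gp130, and CISH at receptors that use STAT5.

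The sequences below belong to promoters and distal elements that changed at 1 or 18 h, a selection made after their values were seen, and all had a peak in 17 of 17 lists. The promoters are the 200 bases upstream of the RefSeq start on the strand of the gene (GRCm38, which is mm10). The distal elements are the 201 bases around the best summit on the plus strand of the same build. Capitals mark matches, on either strand, to GAS (TTCNNNGAA), ISRE (GAAANNGAA), AP-1 (TGANTCA) or PU.1 (GAGGAAGT).
Socs3 promoter, chr11:117969367-117969566, minus strand: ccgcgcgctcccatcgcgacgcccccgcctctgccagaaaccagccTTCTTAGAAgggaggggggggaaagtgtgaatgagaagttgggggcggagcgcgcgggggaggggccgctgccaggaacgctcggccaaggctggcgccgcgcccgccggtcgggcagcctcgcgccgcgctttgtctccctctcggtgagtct
Socs1 promoter, chr16:10785537-10785736, minus strand: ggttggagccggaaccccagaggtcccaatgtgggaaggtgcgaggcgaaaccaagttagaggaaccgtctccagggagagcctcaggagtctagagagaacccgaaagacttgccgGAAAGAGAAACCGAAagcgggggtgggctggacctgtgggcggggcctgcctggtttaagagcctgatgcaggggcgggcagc
Stat2 promoter, chr10:128270298-128270497, plus strand: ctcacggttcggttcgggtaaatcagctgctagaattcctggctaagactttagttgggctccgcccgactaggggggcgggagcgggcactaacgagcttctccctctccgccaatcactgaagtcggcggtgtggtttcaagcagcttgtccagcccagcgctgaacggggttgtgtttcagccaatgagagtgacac
Stat3 promoter, chr11:100939541-100939740, minus strand: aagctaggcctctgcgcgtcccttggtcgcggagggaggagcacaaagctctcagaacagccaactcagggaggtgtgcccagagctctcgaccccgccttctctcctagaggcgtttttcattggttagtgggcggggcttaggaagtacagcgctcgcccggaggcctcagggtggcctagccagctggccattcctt
Socs3 +9.2 kb, chr11:117959932-117960132: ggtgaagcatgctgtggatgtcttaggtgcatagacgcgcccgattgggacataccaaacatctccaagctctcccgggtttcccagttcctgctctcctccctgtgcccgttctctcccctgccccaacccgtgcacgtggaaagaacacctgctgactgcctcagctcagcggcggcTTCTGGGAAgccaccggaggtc
Socs3 +22.4 kb, chr11:117946651-117946851: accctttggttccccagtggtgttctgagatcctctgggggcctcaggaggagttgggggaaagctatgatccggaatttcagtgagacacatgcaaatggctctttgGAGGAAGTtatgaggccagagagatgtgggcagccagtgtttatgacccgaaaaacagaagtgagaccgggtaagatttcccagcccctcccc
Cish −17.3 kb, chr9:107278600-107278800: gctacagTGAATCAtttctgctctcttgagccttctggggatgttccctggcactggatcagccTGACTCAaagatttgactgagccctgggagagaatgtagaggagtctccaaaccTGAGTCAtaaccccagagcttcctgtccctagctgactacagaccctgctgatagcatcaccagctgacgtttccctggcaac
Stat6 −11.0 kb, chr10:127631900-127632100: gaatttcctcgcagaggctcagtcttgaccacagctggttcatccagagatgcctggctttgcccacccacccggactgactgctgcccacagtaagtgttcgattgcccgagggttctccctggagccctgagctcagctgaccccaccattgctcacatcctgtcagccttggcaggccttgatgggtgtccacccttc
The Socs1 promoter held 2 overlapping ISRE matches, the Socs3 promoter and Socs3 +9.2 kb each held 1 GAS match, Socs3 +22.4 kb held 1 PU.1 match and Cish −17.3 kb held 3 AP-1 matches. The promoter windows end at the RefSeq start. The best summit of the Socs1 promoter element lies 168 bp and that of Socs3 −0.1 kb 129 bp downstream of it, outside the windows, and the GAS match shown for Socs3 belongs to the neighbouring element Socs3 −0.4 kb, which was not called. In the Stat2 and Stat3 promoters and Stat6 −11.0 kb none of these letters were found in the windows shown.

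At 0 h the loci differed widely in how strong their promoters were. The Stat3 promoter (Stat3 −0.1 kb, chr11:100939403-100939739, summit 124 bp upstream of the TSS) was among the strongest peaks of the genome, with ranks of 542.5, 471 and 624 in WT and 478.5, 690.5 and 715.5 in KO. Stat3 mediates IL-6 and IL-10 signals. The promoters of Stat2 (1098 to 2583.5 over the 6 lists at 0 h), Socs1 (1581.5 to 7477) and Stat5a (2477 to 4452) came next and overlapped each other. Those of Stat6, the IL-4 signal transducer (4821.5 to 11470), and of Cish (11580.5 to 17123.5) and Socs3 (11470 to 17231) were weaker, and the last pair overlapped. The best Stat5b promoter element by median rank over the 17 lists lay at an internal TSS, 28.2 kb downstream of the first, and had ranks of 16520 to 20305 at 0 h, which overlapped those of the element at the first TSS, Stat5b +0.3 kb (14794.5 to 23678). Stat4, which acts mainly in lymphoid cells, had no summit within 1 kb of its first TSS in any of the 17 lists. At an inner start of Stat4 a peak appeared in 6 lists with ranks of 63232 to 82779, all beyond the matched number.

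Over all times, 27 of the 61 elements had a matched-number peak in all 17 lists, whereas 24.9% of all elements did. The Stat5b, Stat5a and Stat3 genes form a cluster on chromosome 11, with 8626 bp between Stat5b and Stat5a and an overlap of 72 bp between Stat5a and Stat3, so 7 elements fell within 20 kb of more than 1 member. Socs3 had the most elements (15), followed by Stat6 (12) and Stat5b (10).

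After 1 h of LPS, 11 of the 61 elements were higher and 3 lower than at 0 h, averaged over WT and KO. Of all elements, 5.09% were called higher and 3.67% lower, against 18.0% and 4.92% of the members. The median difference was 0.11 on the score scale over the members and −0.02 over all elements. The higher elements were 7 of 15 at Socs3, 2 of 8 at Cish, 1 of 5 at Stat2 and 1 of 12 at Stat6, and none of the elements at Stat3, Stat4, Stat5a, Stat5b or Socs1 passed. By type, 8 were distal, 2 were member promoters and 1 was the promoter of another gene. Over the genome 6.44% of distal elements and 2.70% of promoter elements were higher. Of the 11, 2 had no matched-number peak at 0 h and could only be higher. Among the elements with such a peak at both times, 9 of 45 members were higher (20%) and 3 lower (6.67%), against 5.98% and 5.31% of all. When all deposited peaks were ranked, 12 elements were called higher and 7 lower, against 4.75% and 22.3% of all elements, the lower ones being 3 at Stat5b, 3 at Stat6 and 1 at Socs1. This ranking shifted the median difference at 1 h to −0.59 over all elements and −0.05 over the members.

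The Socs3 promoter changed most. Socs3 −0.1 kb (chr11:117969155-117969464, summit 51 bp upstream of the first protein-coding TSS in GENCODE, in an intron of another annotated Socs3 transcript) ranked 13510.5, 17231 and 13392 in WT and 15079.5, 14943.5 and 11470 in KO at 0 h. At 1 h it ranked 1073.5 and 498 in WT and 1030.5, 424.5 and 1983.5 in KO. Every list at 1 h was therefore stronger than every list at 0 h, and the genotypes overlapped at both times. The score rose by 4.08 (SE 0.35, 95% CI 3.35 to 4.81, adjusted p = 4.36e-07 in limma), a 16.96-fold better rank. The exact permutation test gave p = 0.005, the smallest it can give here.

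**Figure D1:**
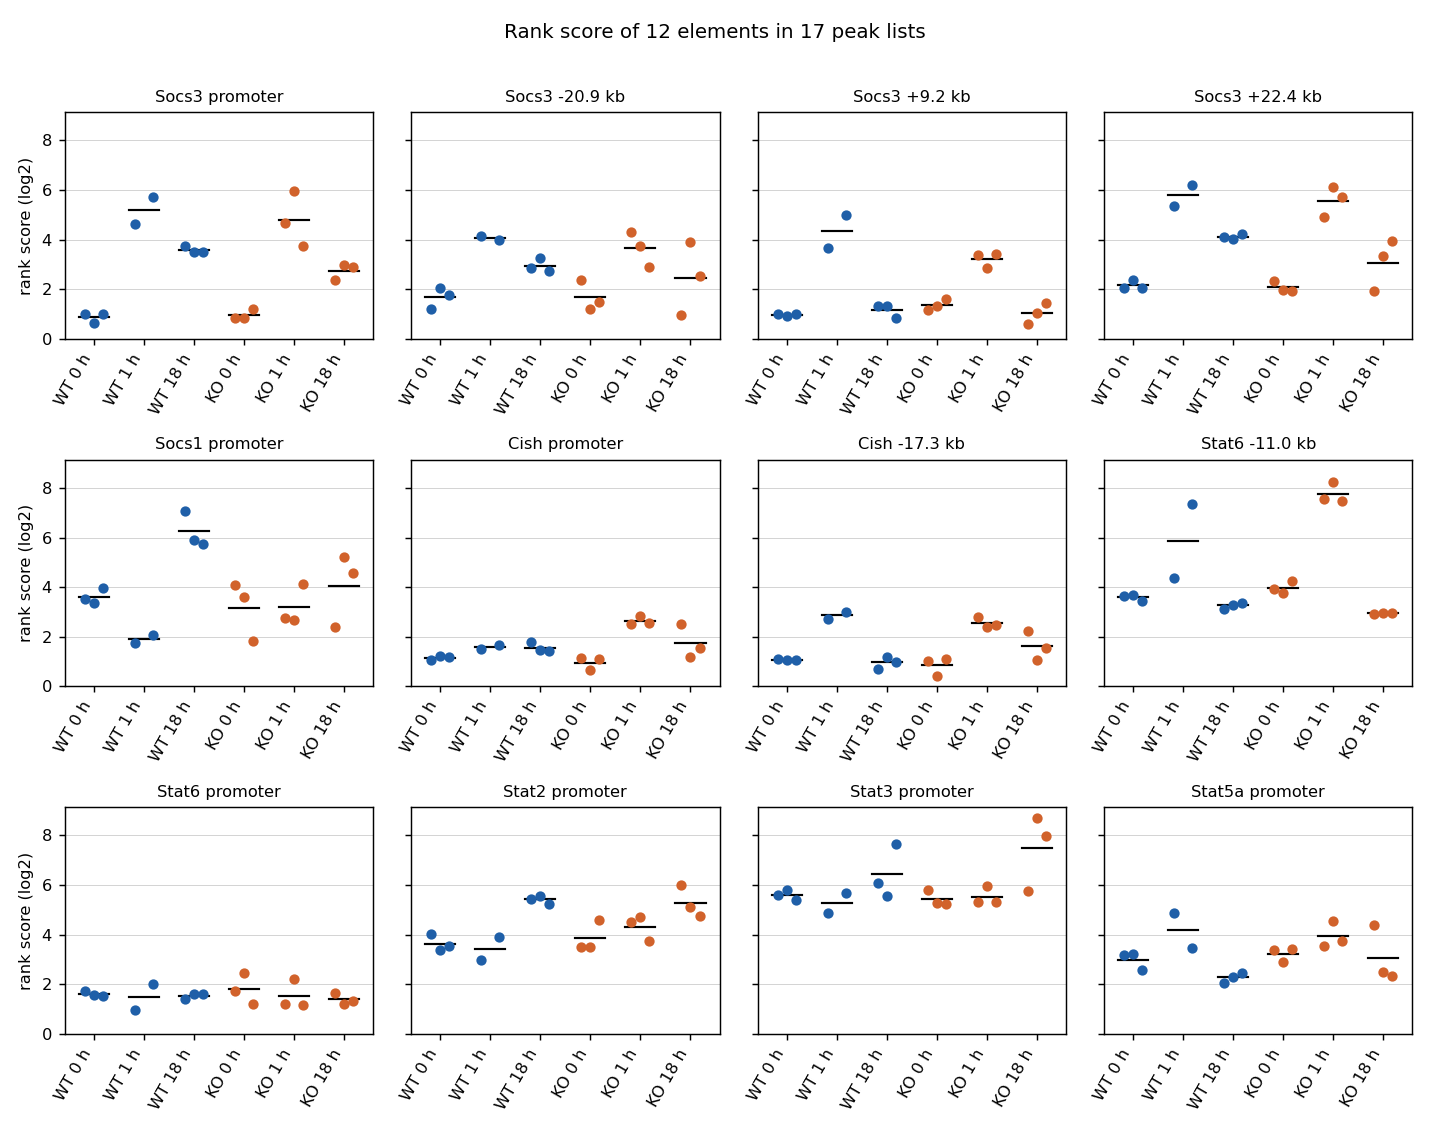
Rank score (0 = absent or weaker than the 26558 best peaks, +1 = a 2-fold better rank) of 12 elements in each of the 17 lists, grouped by genotype and LPS time (points are lists, black lines are group means). The Socs3 promoter (Socs3 −0.1 kb) scores lowest in the 6 lists at 0 h and highest in 4 of the 5 lists at 1 h.

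The change at Socs3 reached well beyond the promoter. Socs3 +22.4 kb (chr11:117946580-117946891, intergenic) ranked 5115 to 6908 over the 6 lists at 0 h and 359.5 to 888.5 over the 5 lists at 1 h, without overlap. Its score rose by 3.56 (SE 0.36, adjusted p = 2.30e-06 in limma), an 11.8-fold better rank. Socs3 +9.2 kb (chr11:117959847-117960252, intergenic) went from 8871 to 13921.5 at 0 h to 832.5 to 3724.5 at 1 h, a rise of 2.61 (SE 0.26, adjusted p = 1.94e-06). Socs3 −20.9 kb (chr11:117989718-117990404, in an intron of Pgs1) rose by 2.18 (SE 0.43). The elements at −8.9 and −10.4 kb (chr11:117977927-117978200 and chr11:117979409-117979732, both intergenic) were beyond the matched number or absent in all 6 lists at 0 h and had ranks of 4036.5 to 10076 and 5588.5 to 20079 at 1 h. They entered the set of elements through lists after LPS alone, so a rise over 0 h was fixed by how the elements were formed, and their differences of 1.91 and 1.17 from a score of 0 are a description. The second of these fell below the size required without WT 1 h replicate 1-2 (0.86) and without the 3 lists under 1 background read per kb (0.93). It also did so in the fit blocked on replicate number (0.85). With the best 10000 peaks of each list neither was called at 1 h, with differences of 0.50 and 0.

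**Figure D2:**
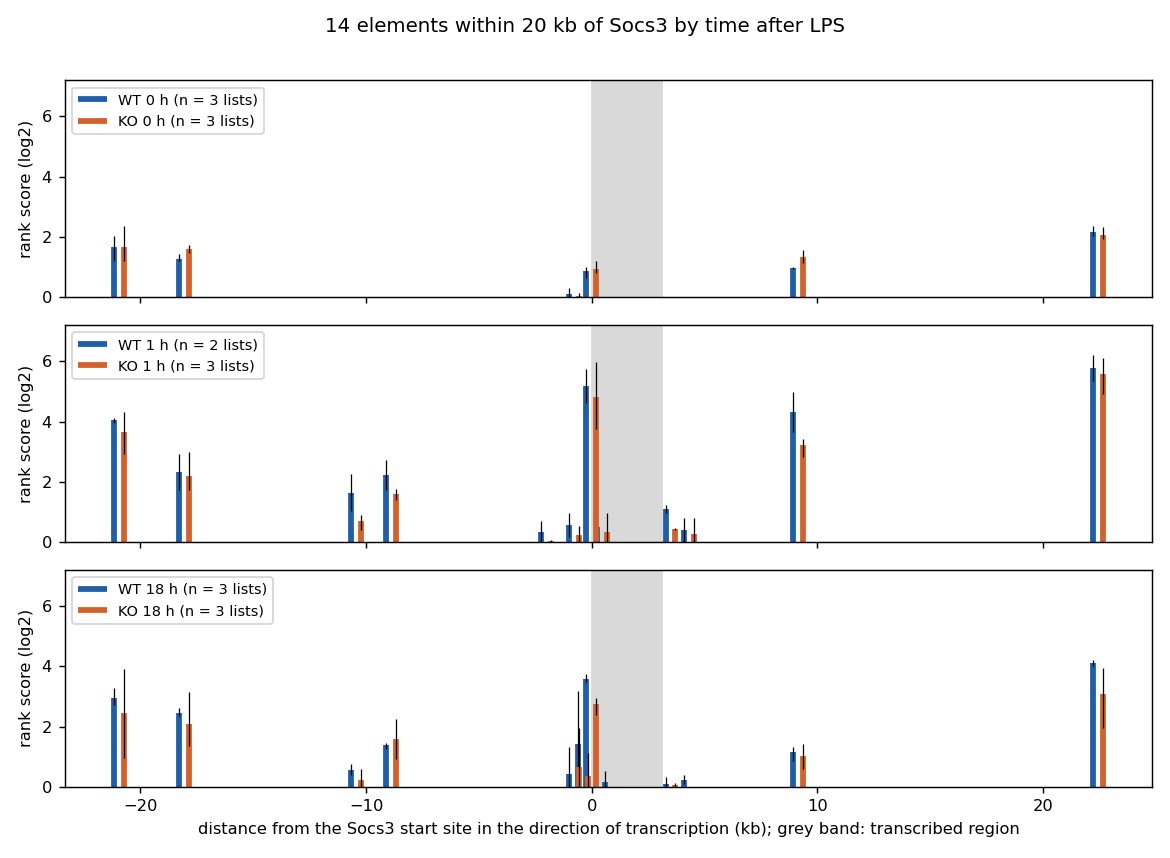
Mean rank score of 14 of the 15 Socs3 elements at 0, 1 and 18 h in WT and KO (bars, with black lines from the lowest to the highest list) against distance from the TSS in kb, with the transcribed stretch in grey. The 6 elements shown that were called higher at 1 h lie between −20.9 and +22.4 kb, and the other 8 did not pass the test.

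At Cish, the promoter element (Cish +0.6 kb, chr9:107295693-107296748, in a UTR exon of Cish and 80 bp from an annotated TSS) had ranks of 11580.5 to 17123.5 at 0 h and 3724.5 to 9478.5 at 1 h. Its score rose by 1.06 (SE 0.23, adjusted p = 2.83e-03 in limma), close to the size required, and without KO 0 h replicate 2 the rise was 0.98 and not called. When all deposited peaks were ranked it was 0.54 (adjusted p = 0.309). Cish −17.3 kb (chr9:107278605-107278833, in an intron of Mapkapk3) had ranks of 12510 to 20014 at 0 h and 3330 to 5109.5 at 1 h, a rise of 1.75 (SE 0.23, adjusted p = 3.12e-05).

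Among the STAT genes, the strongest response lay upstream of Stat6. Stat6 −11.0 kb (chr10:127631843-127632168, intergenic, nearest to the TSS of Lrp1) ranked 2109, 2084 and 2461 in WT and 1752.5, 1957 and 1411 in KO at 0 h. At 1 h it ranked 1277 and 160.5 in WT and 141, 89 and 149 in KO, which placed it among the best 200 peaks of 4 of 5 lists. The score rose by 3.03 (SE 0.42, adjusted p = 5.38e-05), an 8.19-fold better rank, and the rise became 2.29 when WT 1 h replicate 3 was dropped and 3.78 when the other WT list at 1 h was. At 18 h its ranks were 2563.5 to 3482, weaker than in any list at 0 h or 1 h, but the difference from 0 h was −0.67 (adjusted p = 0.251 in limma) and was not called. The Stat6 promoter itself (Stat6 −0.0 kb, chr10:127642808-127644102) had a difference of −0.20 at 1 h and did not pass.

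The 3 elements that were lower at 1 h lay close together past the 3′ end of Stat6, at the shared start region of Nab2, a corepressor of EGR transcription factors, and Nemp1. Stat6 +24.0 kb (chr10:127666796-127667160) went from ranks of 2237.5 to 3442.5 at 0 h to 6336.5 to 14541 at 1 h and fell by 1.81 on the score scale (SE 0.27, adjusted p = 1.32e-04 in limma). Stat6 +25.0 kb (chr10:127667747-127668565) fell by 1.66 (SE 0.32). Stat6 +24.5 kb (chr10:127667202-127667724) fell by 1.15 with an adjusted p of 0.0448, but the exact permutation p was 0.11 and the call held in only 4 of the 17 fits that left out 1 list each. Stat2 +32.8 kb (chr10:128303243-128303538), at the promoter of Pan2, rose by 1.48 (adjusted p = 0.0121 in limma) and lost its call without WT 1 h replicate 1-2 (adjusted p = 0.0554), with log2 depth as a covariate (0.187), with all deposited peaks ranked (0.165), on the linear rank scale (0.289), with 50% cover of the element required (0.149) and in the fit blocked on replicate number (0.118).

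After 18 h of LPS, 7 of the 61 elements were higher and 0 lower than at 0 h, against 2.87% higher and 3.12% lower of all elements. The members called higher made up 11.5%. Of the 7, 4 were member promoters, those of Socs3, Socs1, Stat2 and Stat3, and 3 were distal elements of Socs3, 1 of them without a matched-number peak at 0 h. Among the elements with such a peak at both times, 6 of 45 members were higher (13.3%), against 3.26% of all. Over the genome 1.61% of promoter elements and 3.60% of distal elements were higher at 18 h. By the exact permutation test adjusted over all elements, 3 of the 61 passed, and the share of all elements that passed it was not counted. In limma 20 of 61 members had an unadjusted p under 0.05, against 33.4% of all elements.

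The Socs3 promoter had ranks of 1966.5, 2379.5 and 2331.5 in WT and 5095.5, 3414 and 3610 in KO at 18 h, stronger than in all 6 lists at 0 h and weaker than in 4 of the 5 lists at 1 h. The score was 2.25 above that at 0 h (SE 0.33, adjusted p = 1.31e-04 in limma). The distal elements at +22.4 and −8.9 kb were 1.48 and 1.49 above 0 h. With the best 10000 peaks of each list, Socs3 −8.9 kb was 0.19 above 0 h and not called. Without KO 18 h replicate 1, whose peaks were narrow, the 18 h differences were 2.34 for the Socs3 promoter, 1.76 for Socs3 +22.4 kb and 1.42 for the Stat2 promoter, all still called, and 1.33 for Socs3 −8.9 kb.

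The promoters of Stat2, Socs1 and Stat3 passed the test at 18 h and did not at 1 h. The difference between the times was not tested. The Stat2 promoter (Stat2 −0.1 kb, chr10:128270359-128270586, summit 126 bp upstream of the TSS) ranked 1657, 2583.5 and 2310.5 in WT at 0 h and 611, 559 and 703 at 18 h. In KO it ranked 2323.5, 2374 and 1098 at 0 h and 414.5, 778.5 and 997 at 18 h. The 2 times did not overlap, and the score rose by 1.60 (SE 0.33, adjusted p = 2.55e-03 in limma). At 1 h the difference was 0.13 (adjusted p = 0.884). When all deposited peaks were ranked, the calls at 18 h were lost for the Stat2 promoter (1.24, adjusted p = 0.0575 in limma), the Stat3 promoter (1.08, adjusted p = 0.159) and Socs3 +22.4 kb (1.12, adjusted p = 0.0728). Called lower were 2 elements, Stat5b +88.9 kb (−1.41, in a UTR exon of Hcrt) and Stat6 +19.3 kb (−1.02, in an intron of Nab2). In that ranking 3.1% of all elements were called higher at 18 h and 14.4% lower.

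The Socs1 promoter (Socs1 +0.2 kb, chr16:10785173-10785754, summit 168 bp downstream of the TSS in an intron) ranked 2327, 2610.5 and 1694 in WT at 0 h, 7952 and 6389.5 at 1 h and 195, 449.5 and 491 at 18 h. In KO it ranked 1581.5, 2204.5 and 7477 at 0 h, 3929, 4140.5 and 1537.5 at 1 h and 5095.5, 720 and 1124 at 18 h. The WT lists fell into 3 separate ranges by time, whereas those of KO overlapped. Averaged over genotypes the score rose by 1.76 at 18 h (SE 0.49, adjusted p = 0.0177 in limma). Without KO 0 h replicate 3 or WT 18 h replicate 1 the adjusted p was over 0.05 (0.0504 for the first), with rises of 1.43 and 1.55, and the call was also lost on the linear rank scale (adjusted p = 0.264 in limma) and without the 3 lists under 1 background read per kb (adjusted p = 0.0781). The rise was 2.18 when KO 18 h replicate 1 was left out. At 1 h the difference was −0.85 and did not pass (adjusted p = 0.26), whereas with all deposited peaks ranked it was −1.36 and called lower (adjusted p = 0.0477 in limma).

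The Stat3 promoter ranked 390.5, 569 and 132.5 in WT and 492.5, 63 and 105.5 in KO at 18 h, which overlapped its ranks at 0 h. Its rise of 1.44 (SE 0.49) only just passed (adjusted p = 0.0476 in limma), and it held in 2 of the 17 fits that left out 1 list each, those without WT 18 h replicate 2 (1.66) and without KO 18 h replicate 1 (1.87). Without KO 18 h replicate 1, 9 elements were called at 18 h in place of 7, Socs3 −20.9 kb (1.40) and Stat4 +132.3 kb being added.

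**Figure D3:**
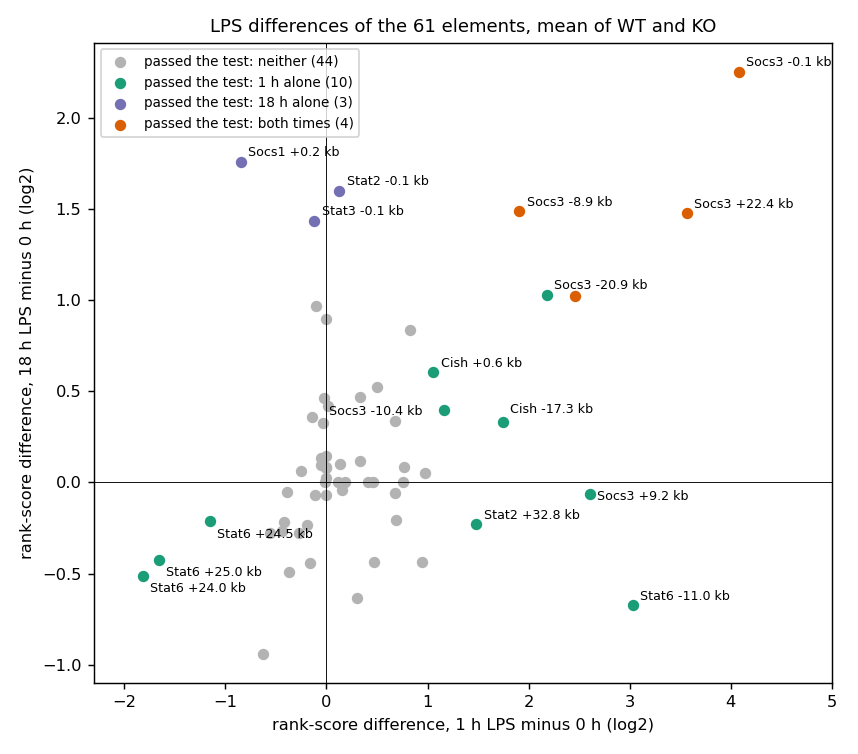
Difference in rank score from 0 h at 1 h of LPS (horizontal axis) and at 18 h (vertical axis) for the 61 elements, coloured by call. Of these, 44 passed at neither time, 10 at 1 h alone, 3 at 18 h alone and 4, all at Socs3, at both.

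Stat5a, Stat5b and Stat4 had no called element at either time in the fit to all 17 lists with the best 26558 peaks of each. When all deposited peaks were ranked, Stat5a +2.3 kb was higher at 1 h (1.38) and Stat5b +0.3, +28.2 and +88.9 kb were lower (−1.23, −1.09 and −1.14). On the linear rank scale a call needed only an adjusted p under 0.05, with no size limit. There 2 elements of Stat5a (+2.3 and +2.8 kb) and 4 of Stat5b were called at 1 h, 3 higher and 3 lower, against 12.3% and 13.8% of all elements. Both Stat5a elements had matched-number peaks in lists at 1 h alone. A rise over 0 h was therefore fixed by how these elements were formed, and their differences are a description. At 18 h Stat5b +88.9 kb was called lower without KO 0 h replicate 3 (−1.04) or KO 18 h replicate 3 (−1.03) and without the 3 lists under 1 background read per kb (−1.04). Stat4 +132.3 kb was called higher at 18 h with array weights (1.21) and with the best 10000 peaks (1.01). The linear rank scale called 1 element of Stat5a and 2 of Stat5b at 18 h, 1 higher and 2 lower, against 9.24% and 12.5% of all elements. The Stat5a promoter (Stat5a +1.0 kb, chr11:100860284-100860528, in a UTR exon 14 bp from a second TSS) ranked 2477 to 4452 at 0 h and 912 to 2394.5 at 1 h, without overlap. The difference of 0.95 (adjusted p = 0.0814 in limma) missed both thresholds, and it was 1.30 and called without WT 1 h replicate 3 but 0.60 without WT 1 h replicate 1-2. At 18 h it ranked 1288.5 to 6414.5. Stat5b +36.0 kb, the best distal element of Stat5b (chr11:100814546-100814855, in an intron), had ranks of 12034 to 20101.5 at 0 h and 5588.5 to 14402 at 1 h, which overlapped, and a difference of 0.47.

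Whether loss of Nur77 altered these elements was tested as the mean KO against WT difference over the 3 times and as the difference between the LPS responses of the genotypes. KO against WT, 0 of the 61 elements were called, against 0.0507% higher and 0.0482% lower of all elements. In limma 5 of 61 had an unadjusted p under 0.05 (9.197% of all elements), and the smallest adjusted p was 0.307. In the exact permutation test 3 had an unadjusted p under 0.05, and the share of all elements was not counted. The differences ran from −0.72 to 0.65, and the 95% CI lay within 1 score unit of 0 for 54 of the 61. For the Socs3 promoter the KO against WT difference was −0.38 (95% CI −0.96 to 0.21), and for the Stat2 promoter it was 0.33 (95% CI −0.27 to 0.93). The 7 whose interval reached beyond 1 score unit were Stat6 +24.5 kb (−0.72, 95% CI −1.40 to −0.03), Stat6 −11.0 kb (0.65, 95% CI −0.06 to 1.36), the Socs1 promoter (−0.45, 95% CI −1.34 to 0.44), the Stat3 promoter (0.38, 95% CI −0.51 to 1.26), Stat2 +32.8 kb (−0.44), Socs3 +22.4 kb (−0.44) and Socs3 −20.9 kb (−0.29). Stat6 −11.0 kb was 1.15 and called without WT 1 h replicate 3 but 0.15 without WT 1 h replicate 1-2. Without KO 18 h replicate 1 the Socs1 promoter was at −0.17 and the Stat3 promoter at 0.67.

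At the single times 0 of the 61 elements were called between the genotypes in limma, against 0.0152% of all elements higher and 0.0431% lower in KO at 0 h, 0.137% and 0.223% at 1 h, and 0.0938% and 0.129% at 18 h. The smallest adjusted p was 0.0316, for Socs3 +3.5 kb at 1 h, whose difference of −0.65 was below the size required. Of the 61, 1, 6 and 12 had an unadjusted p under 0.05 at 0, 1 and 18 h, against 4.38%, 10.5% and 13.0% of all elements. All WT lists scored above all KO lists at 1 element at 0 h, 6 at 1 h and 9 at 18 h, against 6.13%, 6.68% and 8.6% of all elements. All KO lists scored above all WT lists at 3, 4 and 1, against 3.19%, 7.58% and 2.57%. The WT lists at 18 h were deeper than those of KO (4.62 to 8.38 against 1.10 to 1.76 background reads per kb), and the part of depth in these counts was not tested. Without KO 18 h replicate 1, 0 of the 61 were called between the genotypes at 18 h, over the 3 times or between the 18 h responses.

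**Figure D4:**
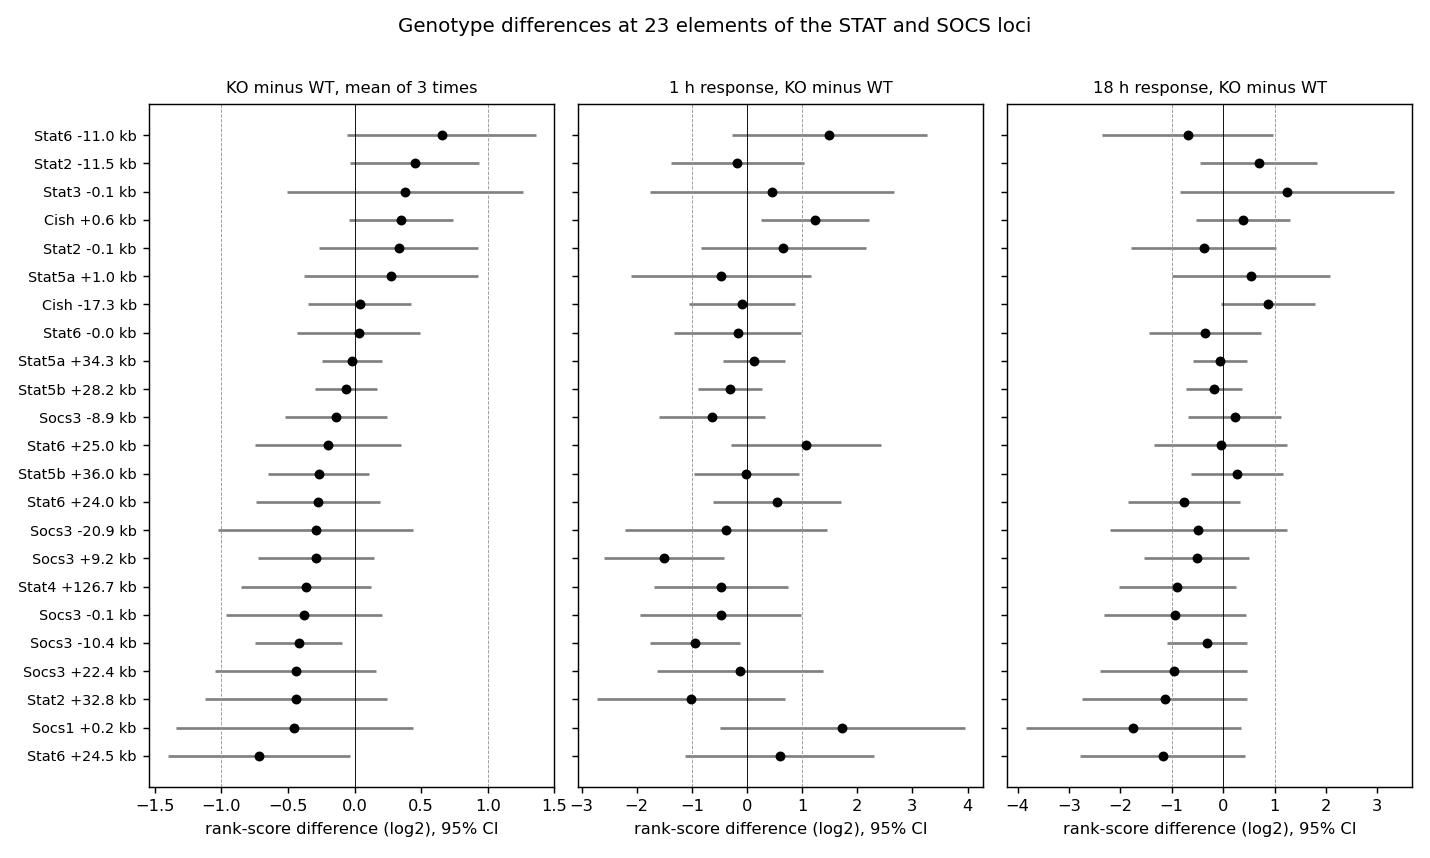
KO minus WT difference in rank score with its 95% CI for the 23 named elements, as the mean over the 3 times and as the difference of the 1 h and 18 h LPS responses. All 69 adjusted p-values were over 0.05, and the intervals of the response differences are wider than those of the mean difference.

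The LPS responses of KO and WT differed at 0 of 61 elements at 1 h, against 0.0101% higher and 0.0507% lower in KO of all elements, and at 0 of 61 at 18 h, against 0% in each direction. Of the 61, 4 and 1 had an unadjusted p under 0.05 in limma (7.01% and 6.50% of all elements). In the exact permutation test 4 and 2 did, and the share of all elements was not counted. These tests were coarse, since the 95% CI lay within 1 score unit of 0 for only 23 and 24 of the 61. The rise of Socs3 +9.2 kb at 1 h was 3.36 in WT and 1.86 in KO, with ranks at 1 h of 2100 and 832.5 in WT and 2582, 3724.5 and 2471.5 in KO, which did not overlap. The difference of −1.50 did not pass (95% CI −2.59 to −0.42, adjusted p = 0.489 in limma), and it was −2.17 and called without WT 1 h replicate 1-2 but −0.84 without WT 1 h replicate 3. The Cish promoter ranked 9478.5 and 8296 in WT and 4685, 3724.5 and 4547.5 in KO at 1 h, also without overlap, and the response differed by 1.24 (95% CI 0.26 to 2.21, adjusted p = 0.571), which did not pass. For the Socs1 promoter the response differed by 1.73 at 1 h (95% CI −0.49 to 3.95) and by −1.75 at 18 h (95% CI −3.84 to 0.35), and neither passed. The first was 1.07 without KO 0 h replicate 3, and the second −0.91 without KO 18 h replicate 1, where that of the Stat3 promoter became 2.11 and was not called. For Stat6 −11.0 kb the response at 1 h differed by 1.49, and by 2.99 and called without WT 1 h replicate 3 but by −0.01 without WT 1 h replicate 1-2. For Socs3 −10.4 kb it differed by −0.94, and by −1.55 and called without WT 1 h replicate 3 but by −0.33 without WT 1 h replicate 1-2. Without KO 0 h replicate 1, Stat6 +23.6 kb (−1.55) was called.

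STAT and nuclear receptor motifs were counted within 100 bp of the best summits, on both strands. A GAS match was found at 9 of the 61 elements (14.8%), against 5.38% of all 39449 windows of the same length. They were Socs3 −0.4, −0.1, +3.5 and +9.2 kb, Cish +0.6, +10.4 and +17.1 kb, Stat6 −6.2 kb and Stat4 +126.7 kb. The sites of the responding elements are shown for comparison.
Socs3 −0.1 kb, chr11:117969239-117969247, 6 bp from the summit: TTCCTGGAA
Socs3 +9.2 kb, chr11:117960111-117960119: TTCTGGGAA
Cish +0.6 kb, chr9:107296659-107296667: TTCCTGGAA
Cish +0.6 kb, chr9:107296670-107296678: TTCTTGGAA
Of the 11 elements higher at 1 h, 3 held a GAS match (8.08% of all elements higher at 1 h did), 2 held AP-1 (35.1%) and 1 held NF-kB (17.05%). Over the 61, AP-1 was found at 7 (11.5%, against 17.9% of all), NF-kB at 4 (6.56%, 5.08%), ISRE at 4 (6.56%, 7.31%), PU.1 at 3 (4.92%, 6.99%), the wider STAT6-type motif (TTCNNNNGAA) at 1 (1.64%, 4.47%) and C/EBP (TTGCNNAA) at 6 (9.84%, 10.6%). NBRE (AAAGGTCA), the motif that Nur77 binds as a monomer, was found at 2 (3.28%, against 0.989% of all), Stat5a +1.0 kb and Stat5b +28.2 kb. The KO against WT difference passed at neither. Within 50 bp of the summits GAS was at 3 of 61 (4.92%, against 2.63% of all). A match of letters is a description and no evidence of binding.

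Other genes of the pathway gave a frame for these loci. Of 43 receptors, kinases, inhibitors, partners and targets, 42 had an element, 286 in all. At 1 h 21 of the 286 were higher (7.34%) and 10 lower (3.50%), at 13 and 9 genes, and at 18 h 14 were higher (4.90%, against 2.87% of all elements) and 5 lower (1.75%, against 3.12%). STAT target genes held 13 of the 21, which is 13 of their 85 elements (15.3%), with 3 lower (3.53%), against 5.09% and 3.67% of all elements, including Pim1 (4 of 14 elements, largest rise 1.47), Mcl1 (4 of 24, 1.88) and Il4i1 (1 of 15, 3.59). Of 93 receptor elements, 4 were higher (4.30%), at Ifnar2, Il10rb and Ifngr2, where the first pair are neighbours and share elements, and 3 were lower (3.23%), at Ifnar2, Il6ra and Il12rb1. At 18 h, 2 of 5 elements of Irf9, the partner of STAT2, were higher, by up to 2.05. At the other inhibitors 2 of 74 elements were higher and 4 lower at 1 h, with Socs2 (1.21) among the higher. KO against WT and between the responses, 0 of the 286 were called.

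The 5 elements elsewhere in the genome whose scores followed the Socs3 promoter most closely over the 17 lists were nearest to Cd47 (Pearson r = 0.970), Aoah (0.965), Fcgr2b (0.955), Tgm2 (0.954) and Cd44 (0.952). These are descriptions over lists that share the LPS times.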

How the data were processed

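Per the labels and the methods of the study, nuclei of 17 BMDM samples were tagmented with Tn5, and the authors trimmed the reads with cutadapt 2.6, mapped them to mm10 with the snakeATAC pipeline and called peaks in each sample separately. The deposited lists hold for each summit a fold column, which is the ratio of pileup to background, and p-value and q-value columns on the −log10 scale. The score column of the deposited lists was not used. These values depend on depth, so the −log10 p-value of the deposited lists was used for order within a list and for nothing else. The DiffBind test of the study needs reads per site, which were not used here. The depth in background reads per kb was recovered from the fold and p-value columns, on the assumption that the shortest peak equals the fragment length.

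The 17 lists held 1001519 entries, 26558 to 92594 each, and no pair was identical. Summits of the best 26558 entries of every list were widened by 75 bp and merged, and clusters seen in at least 2 lists made the elements. Genes and TSSs were those of GENCODE M21, and promoter and motif sequences came from GRCm38 and RefSeq. Groups were compared with limma 3.58.1 (trend, robust; R 4.3.3) with 6 group means over 17 lists, and single values with two-sided exact permutation tests within genotype or time, whose smallest p is 0.005 for the LPS and response comparisons and 0.00025 for KO against WT. The scripts were tested on simulated data. Elements named are, for each gene, the best-ranked promoter and distal element, and all elements called, except 1 Socs3 element that is counted but not reported here. The members, gene lists and thresholds were chosen with earlier results of these data known. Replicate numbers did not pair the lists. Alternatives were other list lengths, rank scales, overlaps, weights, tests and distances, a depth covariate, and leaving out each list.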

Additional observations from a re-analysis of the deposited data

How the results depend on the processing

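At 1 h of LPS 14 member elements were called. This count became 24 on the linear rank scale, where no size limit was applied (12.3% of all elements were higher and 13.8% lower). It became 22 when a peak had to cover 50% of the element and 24 with no limit on the size of the difference. Within 10 kb of the gene body it was 9 (fewer elements counted). Leaving out 1 list gave 12 to 15. Ranking all deposited peaks gave 12 higher and 7 lower at 1 h, and 3 higher and 2 lower at 18 h. At 18 h the count of 7 became 14 on the linear scale (10 higher and 4 lower), 12 with 50% cover, 12 with no size limit and 3 by the exact permutation test, and leaving out 1 list gave 5 to 9, with 1 lower in 2 of these fits. KO against WT the count of 0 became 1 without WT 1 h replicate 3 and stayed 0 in the 16 other such fits. For the 1 h responses of KO and WT, leaving out 1 list gave 0 to 2, and leaving out the 3 shallowest lists together, chosen after seeing the data, gave 1 (Socs3 +0.5 kb, −1.02). For the 18 h responses every alternative gave 0. When a WT list at 1 h was left out, the lone list was assumed to vary like the other groups. With log2 depth as a covariate 12 and 6 elements were called at 1 and 18 h. With merged peak intervals as elements, an alternative added after seeing the data, 10 and 6 of 41 were. No difference of a named element changed sign while it was called. The best 10000 peaks of each list gave 10 calls at 1 h and 6 at 18 h, with fewer elements tested. Among these alternatives, the share of all elements was counted only on the linear scale and with all deposited peaks ranked. The other counts therefore do not show whether the members stand out. The cause of the changes between settings was not tested where none is given.

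The replicate numbers of the labels did not pair the lists. Deviations from the group means of same-numbered lists correlated with r between −0.206 and 0.200 over 35 pairs, 2 of them above 0.1, and those of other pairs between −0.236 and 0.330. In a fit that held the replicate number as a block, 11, 6, 0, 0 and 0 elements were called in the 5 comparisons. The peak at rank 26558 rests on 3 reads in the shallowest list (WT 1 h replicate 1-2) and on 6 to 9 in the KO lists at 18 h, so weak elements are uncertain there.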

Other observations

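Beyond the matched number, the full lists held weaker sites at some of the loci. At 12 sites all 3 WT lists at 18 h had a peak and none of the WT or KO lists at 0 h did, 4 at Stat2, 3 at Socs3, 2 each at Stat4 and Stat5b and 1 at Socs1. Their ranks in WT at 18 h ran from 29114 to 71129. At Stat2, sites 12.7 and 14.1 kb downstream of the TSS lay in the gene body. The whole Stat2 window held 5 to 8 peaks in WT at 0 h and 21 to 32 in WT at 18 h, while KO went from 5 to 10 to 8 to 11. At Socs1 the same counts were 5 to 10 and 12 to 16 in WT, and 2 to 7 and 3 to 8 in KO. At Socs3 they were 11 to 13 and 20 to 29 in WT, and 8 to 12 and 15 to 17 in KO. In WT the ranges at 0 and 18 h overlapped at Stat3 (7 to 13 and 9 to 18) and Stat5b (14 to 17 and 16 to 35). They also overlapped at Stat4, Stat5a and Cish (11 to 14 and 11 to 12 at Cish). The Stat6 window held fewer peaks at 18 h in WT (27 to 29 and 21 to 25). The full WT lists held 79368 to 92594 peaks at 0 h and 58461 to 83628 at 18 h. The depth was 5.11 to 9.75 and 4.62 to 8.38 background reads per kb in WT at 0 and 18 h but 0.720 to 7.65 and 1.10 to 1.76 in KO, and the part of depth in these counts was not tested. These sites were picked by their pattern, and no test was made.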
